A study of Mus musculus with 22 samples.

Results

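Cyclosporin A (CsA), an immunosuppressant used after organ transplantation that can harm the liver, was compared with its solvent after 48 h in cultured primary mouse hepatocytes, with the CsA doses pooled. All cells came from mice of strain background C57Bl6. The comparison took every array titled CsA for 48 h, 3 at 10 µM and 3 at 50 µM, against every array titled 0.5% v/v DMSO for 48 h, so 6 arrays stood against 6 out of 22 in the series. The other 10 arrays were taken at 24 h. Each of the 3 experiments numbered in the labels gave 1 CsA array per dose and 2 DMSO arrays, and the experiment number entered the test as a block. The labels call the samples biological replicates but do not say whether the cells of an experiment came from 1 mouse or several, so the p-values measure the spread between these arrays, which may be partly technical. The treatment text of the labels speaks of HepG2 cells, whereas every other field names primary mouse hepatocytes.

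MicroRNAs (miRNAs) are short RNAs that lower the stability and translation of messenger RNAs, which they recognise mainly through the seed, bases 2 to 8 of the mature strand. A hairpin precursor can give a mature strand from either arm, named 5p and 3p, and miRNAs with the same seed can share targets. CsA binds cyclophilins, and the complex blocks the phosphatase calcineurin, which keeps transcription factors of the NFAT family out of the nucleus. In hepatocytes a small set of miRNAs, miR-122 above all, makes up much of the miRNA content.

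Signals were scaled by each array's 75th percentile and are given on a log2 scale, where the floor, the lowest value kept, was -4.41. The liver identity of the cultures was checked against marker lists, which were chosen with earlier results of these data known. The hepatocyte list held 21 miRNAs on the array, 16 of them well above background on at least 1 of the 12 arrays. Its summed scaled signal ran from 56.4 to 72.2 on CsA arrays and from 53.7 to 70.8 on DMSO arrays. The brightest member of the list was miR-122-5p, with a mean log2 signal of 5.48 in CsA and 5.42 in DMSO. Of the erythroid markers 0 of 3 were seen, including miR-451a. In these sums a strand under the floor counted as 0.0471, the floor before log2. The erythroid list therefore summed to 0.141 on every array with 0 markers seen. The sums of the lists that follow likewise include floor values, which are not measured signal. Of the leukocyte and macrophage markers 2 of 7 were seen on some arrays, and miR-142-3p and miR-223-3p on 0 arrays; the summed signal of that list ran from 0.335 to 0.413 in CsA and from 0.330 to 0.356 in DMSO. The endothelial list had 1 of 2 seen (0.125 to 0.192 against 0.101 to 0.203), the mesenchymal and stellate list 1 of 9 (0.424 to 0.484 against 0.424 to 0.501), and the miR-200 list of bile duct and other epithelia 2 of 7, each on 1 array, with miR-200b-3p on 0.

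The dose names were not settled. The value table deposited with the arrays matched the spot files array for array, but 8 of its 12 columns at 48 h carried another sample's name, and 4 of these were CsA arrays with the other dose. Treatment, time and experiment number agreed in all 22 columns, so the pooled groups were the same by either source. Arrays are named here by the files unless the table is mentioned. The arrays also lay on 3 slides: slide 1 held 4 CsA arrays and 1 DMSO array, slide 2 held 2 DMSO arrays, and slide 3 held 2 and 3. On slide 1 the CsA arrays were of experiments 1, 2 and 3 and the DMSO array of experiment 3. On slide 3 the CsA arrays were of experiments 1 and 3 and the DMSO arrays of experiments 2 and 3. Differences given below within a slide are plain differences of means without the experiment block, so they also hold differences between experiments. On slide 1, outlier spots made up 9.24% and 10.3% on CsA 50 µM replicates 1 and 2. They made up 8.44% on CsA 10 µM replicate 2 and 8.4% on DMSO replicate 6. CsA 10 µM replicate 3, also on slide 1, had 4.21%, and the arrays of slides 2 and 3 had 3.12% to 4.23%. The fewest miRNAs were detected on CsA 50 µM replicates 2 and 1 (201 and 206) and DMSO replicate 6 (236).

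The mature sequences below belong to the miRNAs on which the results turn, first those with lower and then those with higher signal in CsA; capitals mark the seed. They are RefSeq entries of GRCm38.p6, in which 213 of the 269 tested miRNAs had a match. By name, miR-3096b-3p, miR-6407, miR-185-5p, miR-378a-3p and miR-6378 had no match, so their sequences are not shown.
miR-221-3p: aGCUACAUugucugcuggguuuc
miR-222-3p: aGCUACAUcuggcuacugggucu
miR-193a-3p: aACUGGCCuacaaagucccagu
miR-130a-3p: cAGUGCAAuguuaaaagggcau
miR-27b-3p: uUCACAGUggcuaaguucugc
miR-378b: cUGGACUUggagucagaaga
miR-378d: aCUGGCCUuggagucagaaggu
miR-2861: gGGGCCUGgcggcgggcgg
miR-139-3p: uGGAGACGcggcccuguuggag
miR-3057-5p: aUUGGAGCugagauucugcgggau
miR-770-3p: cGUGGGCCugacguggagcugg
miR-370-3p: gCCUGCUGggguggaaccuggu
miR-494-3p: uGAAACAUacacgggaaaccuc
The shared seed of miR-221-3p and miR-222-3p is visible at their 5′ ends, as is the high share of G and C in miR-2861. The first pair is encoded on chromosome X, at chrX:19146307-19146329 and chrX:19146901-19146923 on the minus strand, outside any other annotated gene. The gene of miR-193a-3p lies at chr11:79712009-79712030 on the plus strand and that of miR-130a-3p at chr2:84741116-84741137 on the minus strand, also outside other genes. Within the spans of protein-coding genes lie miR-378b (chr11:88352839-88352858, plus strand, in Msi2), miR-27b-3p (chr13:63300760-63300780, plus strand, in Aopep), miR-139-3p (chr7:101475418-101475439, plus strand, in Pde2a) and miR-3057-5p (chr10:81271610-81271633, plus strand, in Apba3). The last 3 sequences come from the imprinted Dlk1-Dio3 region of chromosome 12, and miR-770-3p lies in the span of the long non-coding RNA gene Meg3 (chr12:109563744-109563765, plus strand).

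After 48 h with CsA, miR-221-3p and miR-193a-3p fell and miR-3096b-3p rose. These were the 3 of 269 tested miRNAs, 1.12%, with an adjusted p under 0.05 (limma with the experiment as block, Benjamini-Hochberg adjustment over all tested miRNAs), 1 higher (0.372%) and 2 lower (0.743%). All 3 differed by over 1.5-fold. At an unadjusted p under 0.05 there were 75 miRNAs (27.9%), 52 of them higher (19.3%) and 23 lower (8.55%), and 17 (6.32%) had an adjusted p under 0.10. The median log2 difference of all tested miRNAs was 0.12, with 170 above 0 (63.2%) and 99 below (36.8%). With the arrays scaled over all probes, dim ones included, that median was -0.22. The calls were then 0 higher and 8 lower, and the unadjusted split was 13 higher and 83 lower. Of all pairs of probe and array, 14.4% were well above background. The 75th percentile over all probes thus lay largely among dim signals. Under quantile normalisation the median was -0.02 and the splits were 1 to 1 and 39 to 32. The 3 calls kept their direction under each of these scalings. Leaving out 1 array at a time gave 0 to 6 calls. It gave 6 without CsA 10 µM replicate 1, 5 without DMSO replicate 5, 1 without DMSO replicate 1, and 0 without CsA 50 µM replicate 2, CsA 10 µM replicate 2 or 3, or DMSO replicate 3, 4 or 6.

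The largest fall among the calls was that of miR-221-3p, known for repressing the cell cycle inhibitor gene Cdkn1b. Its log2 signal was -3.48, -3.15 and -3.0 (lowest, median and highest) on the 6 DMSO arrays and -4.41, -4.33 and -3.76 on the 6 CsA arrays. Every CsA array lay below every DMSO array; 4 of the 269 tested miRNAs (1.49%) were without overlap in this way. It was 1.99-fold lower in CsA, a log2 change of -0.99 ± 0.153 (SE, n = 6 and 6, limma adjusted p = 0.0200), with differences of -0.82, -1.29 and -0.86 in experiments 1, 2 and 3. The signal was well above background on 6 of 6 DMSO arrays but on 3 of 6 CsA arrays, and 2 CsA arrays were held at the floor. Its second probe was also lower, by a log2 difference of -0.57. With the slide as a further block the change was -0.88 (adjusted p = 0.0994), and it was -1.22 within slide 1 and -0.66 within slide 3. Without any 1 of the 6 arrays that left 0 calls its adjusted p was 0.0626 to 0.0868. Its neighbour miR-222-3p, with the same seed, was near the limit of detection: it was well above background on 1 CsA and 2 DMSO arrays, and 6 CsA and 2 DMSO arrays were at the floor. Its log2 change of -0.05 ± 0.069 (adjusted p = 0.624) therefore says little about its size. In the authors' deposited value table it was the 1 miRNA called (-3.23, adjusted p = 0.00314), and with a lower floor it was also called (-0.91, adjusted p = 0.0153).

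The fall of miR-193a-3p, a liver-expressed miRNA, was smaller. Its log2 signal was -1.87, -1.03 and -0.84 in DMSO and -2.61, -1.75 and -1.45 in CsA. The groups overlapped through DMSO replicate 5 of experiment 3, while within each experiment both CsA arrays were below both DMSO arrays. The log2 change was -0.71 ± 0.133 (SE, n = 6 and 6, limma adjusted p = 0.0318), a 1.63-fold decrease, with -0.54, -0.81 and -0.76 in the 3 experiments and both probes alike (-0.71 and -0.70). Within slides 1 and 3 it was -0.62 and -0.52, and with the slide as a block -0.78 (adjusted p = 0.216); without the experiment as block the adjusted p was 0.176. The call held in 3 of 12 fits that left out 1 array. It ended without CsA 10 µM replicate 2 or 3, CsA 50 µM replicate 1 or 2, or DMSO replicate 1, 2, 3, 4 or 6 (adjusted p 0.0569 to 0.121).

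The rise of miR-3096b-3p took its log2 signal from -0.95, -0.53 and 0.12 in DMSO to 0.02, 0.18 and 0.42 in CsA. Only DMSO replicate 2 reached into the CsA range. The change was 0.64 ± 0.115 (SE, n = 6 and 6, limma adjusted p = 0.0318), a 1.56-fold increase, with 0.36, 0.74 and 0.83 by experiment. It was the call that held with the slide as a block (0.87, adjusted p = 0.0425; 1.11 within slide 1 and 0.80 within slide 3). Scaled over all probes the change was 0.22 (adjusted p = 0.315), and without the experiment as block the adjusted p was 0.131. The call was lost without CsA 10 µM replicate 2 or 3, CsA 50 µM replicate 2, or DMSO replicate 1, 3, 4 or 6 (adjusted p 0.0626 to 0.108). The 5p arm of the same precursor, miR-3096b-5p, stood at 0.51 ± 0.325 (adjusted p = 0.301). At 24 h, on other arrays, miR-3096b-3p was also higher, by 0.89 ± 0.178 (SE, n = 5 and 5, limma adjusted p = 0.0360). The residual spread behind this SE and p came from all 22 arrays, those at 48 h included.

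**Figure D1:**
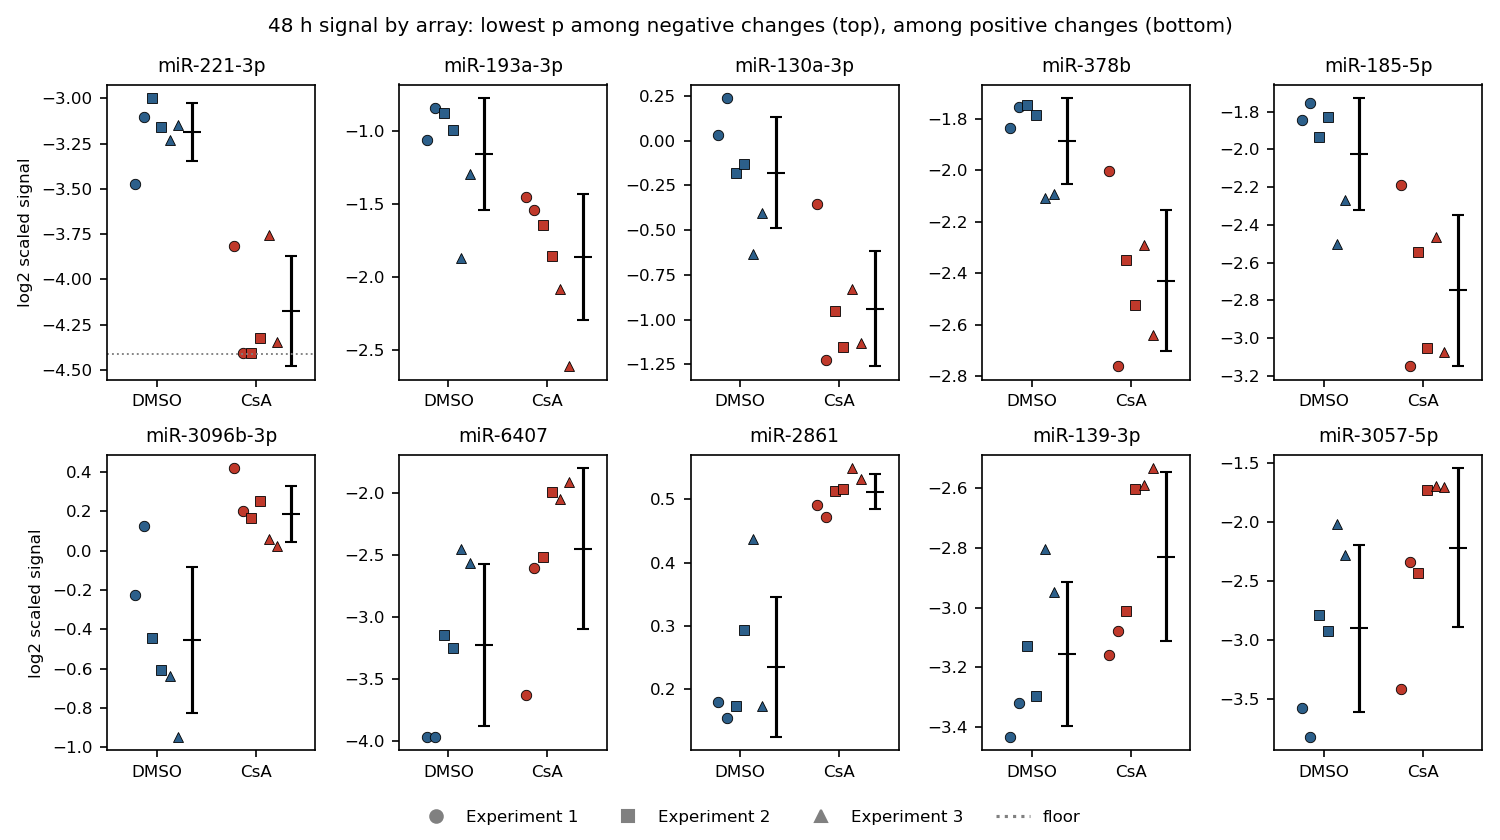
Log2 scaled signal (y axis) on the 6 DMSO and 6 CsA arrays at 48 h for the 5 miRNAs with the lowest p among negative (top) and among positive changes (bottom); each point is 1 array, its shape the experiment, the bar the mean and SD, and the dotted line the floor. The CsA arrays of miR-221-3p lie between -4.41 and -3.76, all below the DMSO arrays, and those of miR-2861 all above.

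Several miRNAs known to act on genes of lipid and cholesterol metabolism had lower signal in CsA. Of the 17 miRNAs of that list on the array 11 were tested, and 0 passed the adjusted threshold. Their median log2 change was -0.31, beside 0.12 for all tested, and 8 of 11 were negative. At an unadjusted p under 0.05, 4 were lower and 1 higher, beside 8.55% lower and 19.3% higher among all 269. Scaled over all probes these counts were 7 and 0, beside 83 and 13 of all 269. The closest to the threshold was miR-130a-3p, known to target Pparg, a regulator of fat storage. Its log2 signal was -0.63, -0.16 and 0.24 in DMSO and -1.23, -1.04 and -0.35 in CsA, where the groups overlapped but both CsA arrays of each experiment lay below its DMSO arrays. The change was -0.76 ± 0.159 (SE, n = 6 and 6, limma adjusted p = 0.0527). It was called under 7 of 16 other settings with a test, and was -0.71 and -0.28 within slides 1 and 3. With the slide as a further block it was -0.50 (limma adjusted p = 0.698).

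The next were miR-185-5p, reported to act on the lipoprotein receptor gene Scarb1, and miR-27b-3p, which acts on several lipid metabolism genes. The signal of miR-185-5p was -2.50, -1.89 and -1.76 in DMSO and -3.15, -2.80 and -2.19 in CsA, and the change was -0.72 ± 0.193 (adjusted p = 0.0988). That of miR-27b-3p was -0.95, -0.47 and -0.08 in DMSO and -1.57, -1.09 and -0.66 in CsA, with a change of -0.64 ± 0.184 (adjusted p = 0.0988). Both overlapped between the groups. With the slide as a further block the change was -0.42 for miR-185-5p and -0.54 for miR-27b-3p (limma adjusted p = 0.773 and 0.709). The paralogue miR-27a-3p, which has the same seed, differed by -0.45 ± 0.364 (adjusted p = 0.419). In the miR-23/24/27 clusters 6 miRNAs were tested, 5 were negative, and 2 had an unadjusted p under 0.05, both lower; miR-24-3p was the other, at -0.49 ± 0.195 (adjusted p = 0.145).

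The miR-378 family, whose founding member miR-378a lies in the gene of the metabolic coactivator Ppargc1b, was measured through 3 bright 3p strands. For miR-378b the log2 signal was -2.11, -1.81 and -1.75 in DMSO and -2.76, -2.44 and -2.00 in CsA, a change of -0.54 ± 0.135 (limma adjusted p = 0.0988). Only CsA 10 µM replicate 1 lay within the DMSO range. Its relatives, singled out after their values were seen, were miR-378d with -0.36 ± 0.0992 and miR-378a-3p with -0.31 ± 0.0845 (adjusted p = 0.0988 each). The sequences of these 3 are alike enough that their signals on an array may not be independent. Scaled over all probes, all 3 were called. With the slide as a further block the limma adjusted p was 0.709 for miR-378b and 0.773 for each of the others.

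On the higher side, miR-6407 and miR-3057-5p varied widely between experiments. For miR-6407 the log2 signal was -3.96, -3.20 and -2.45 in DMSO and -3.63, -2.28 and -1.91 in CsA, with a change of 0.77 ± 0.174 (limma adjusted p = 0.0686) and experiment differences of 0.85, 0.94 and 0.53. For miR-3057-5p it was -3.83, -2.86 and -2.01 in DMSO and -3.42, -2.04 and -1.69 in CsA, a change of 0.68 ± 0.193 (adjusted p = 0.0988). In both, the DMSO arrays of experiment 3 were higher than the CsA array at 10 µM of experiment 1, so the groups overlapped while each experiment showed a positive difference. Within slides 1 and 3, without the experiment block, the differences were 0.31 and 0.11 for miR-6407 and 0.22 and 0.02 for miR-3057-5p. With experiment and slide both as blocks the changes were 0.55 and 0.47 (limma adjusted p = 0.698 and 0.773).

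The most even change was that of miR-2861, known from bone cells, where it targets the histone deacetylase gene Hdac5. Its log2 signal was 0.15, 0.18 and 0.44 in DMSO and 0.47, 0.51 and 0.55 in CsA, without overlap. The change was 0.28 ± 0.0747 (limma adjusted p = 0.0988), although scaled over all probes it was -0.15 (adjusted p = 0.290). The signal of miR-139-3p, from the span of the phosphodiesterase gene Pde2a, was -3.43, -3.21 and -2.80 in DMSO and -3.16, -2.81 and -2.53 in CsA. The groups overlapped, and the change of 0.33 ± 0.0918 (adjusted p = 0.0988) became -0.10 when scaled over all probes.

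**Figure D2:**
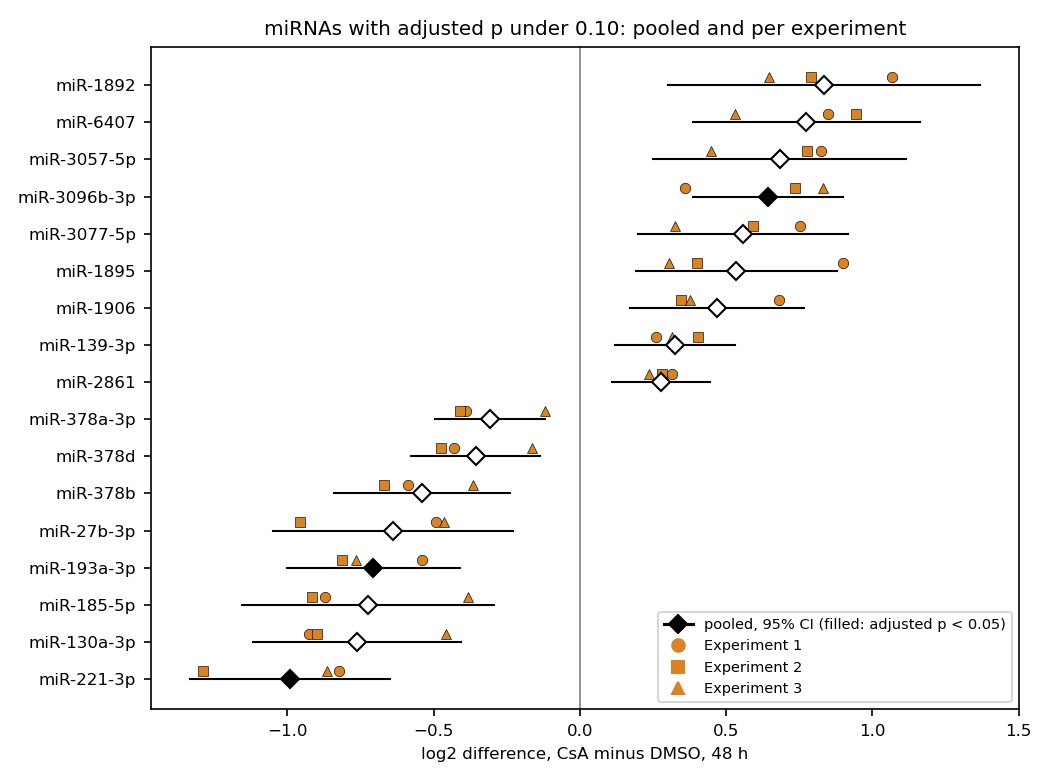
Log2 difference between CsA and DMSO (x axis) for the 17 miRNAs with an adjusted p under 0.10; diamonds are the pooled change with its 95% confidence interval (filled where the adjusted p was under 0.05) and orange symbols the difference within each experiment. All 51 experiment differences have the sign of the pooled change, which the low p-values favour by selection.

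Beside miR-221-3p and miR-2861, the groups did not overlap for miR-6378 and miR-770-3p, both higher in CsA and singled out here after their values were seen. The signal of miR-6378 was -2.14, -1.91 and -1.59 in DMSO and -1.57, -0.52 and 0.62 in CsA, a change of 1.34 ± 0.406 (limma adjusted p = 0.109). This rests on its brighter probe, since the dimmer was well above background on 1 of the 12 arrays. For miR-770-3p, well above background on 5 CsA and 2 DMSO arrays, the signal was -4.41, -4.41 and -4.18 in DMSO and -4.16, -3.41 and -2.63 in CsA, a change of 0.96 ± 0.341 (adjusted p = 0.134). In both miRNAs the CsA arrays fell into a high and a low set of 3.

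The miRNA miR-770-3p belongs to the Dlk1-Dio3 imprinted region, whose miRNAs are expressed from the maternal chromosome. A list of its miRNAs drawn up by name held 68 strands on the array, of which 8 were seen at 48 h and 5 were tested. By RefSeq coordinates (GRCm38.p6), 3 further tested miRNAs lie between Dlk1 and Dio3, namely miR-1906, miR-341-3p and miR-3072-5p, so that 8 of the 213 with coordinates have a locus in the region. RefSeq lists 2 loci for miR-1906, and only the first was used, so its signal may not come from the region alone. All 8 were positive, with a median of 0.50 beside 0.12 for all tested; 6 were higher at an unadjusted p under 0.05, where 19.3% of all 269 were, and 0 passed the adjusted threshold. Scaled over all probes 6 of 8 were positive and 0 were higher at that level, and by the values of the authors' deposited table these counts were 8 and 1. The 5 on the list had a median of 0.75. For miR-134-5p the change was 0.37 ± 0.133 (adjusted p = 0.134), which turned to -0.05 when scaled over all probes. The signal of miR-494-3p was 1.70, 1.79 and 2.39 in DMSO and 1.85, 2.60 and 3.56 in CsA (change 0.75 ± 0.326, adjusted p = 0.175). That of miR-370-3p, also on the lipid list, was -3.59, -3.36 and -1.65 in DMSO and -2.79, -1.73 and -0.39 in CsA (change 1.42 ± 0.536, adjusted p = 0.138). The fifth, miR-432, stood at 0.52 ± 0.175 (adjusted p = 0.134), and miR-1906 at 0.47 ± 0.133 (adjusted p = 0.0988). The other two off the list, miR-341-3p and miR-3072-5p, stood at 0.41 ± 0.194 and 0.41 ± 0.198. Within slide 1 the differences were 1.14 for miR-494-3p, 1.91 for miR-370-3p, 1.37 for miR-770-3p, 0.23 for miR-432 and 0.06 for miR-134-5p; within slide 3 they were 0.07, 0.17, 0.27, -0.04 and -0.01 in the same order.

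For miR-494-3p, miR-370-3p and miR-770-3p the spread within the CsA group followed the dose names of the value table and not those of the files. On CsA 50 µM replicate 1 and CsA 10 µM replicates 2 and 3, which the table names as the 50 µM arrays of the 3 experiments, miR-494-3p stood at 3.13, 3.30 and 3.56. On the other 3 CsA arrays it stood at 1.94, 1.85 and 2.08, within the DMSO range. The same 3 arrays gave -2.70, -2.63 and -2.66 for miR-770-3p, against -4.15, -4.16 and -4.13 on the others. All 3 high arrays lay on slide 1, which also held CsA 50 µM replicate 2 and DMSO replicate 6; on these, miR-494-3p was 1.85 and 1.82. By the table's names the 50 µM and 10 µM arrays differed in 123 miRNAs (45.7% of 269), and by the files' names in 0 (0%). The difference for miR-370-3p was 2.09 (adjusted p = 0.00283) by the table and -0.83 (adjusted p = 1) by the files. Among the other members of the list it was 0.50 for miR-432 (adjusted p = 0.0543) and 0.28 for miR-134-5p (adjusted p = 0.170) by the table, so neither was called. A dose term by the table's names raised the pooled calls from 3 to 95, 67 higher and 28 lower; a dose term by the files' names left 3. The median absolute difference between the 2 CsA arrays of an experiment was 0.638, 0.529 and 0.429 in experiments 1 to 3, against 0.215, 0.0974 and 0.378 between the DMSO arrays.

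Of the 12 tested hepatocyte miRNAs, 8 were negative and the median change was -0.16, beside 0.12 for all tested; 1, miR-193a-3p, was called. Scaled over all probes, where the median of all tested was -0.22 and 184 of 269 were negative, all 12 were negative with a median of -0.57. Of the 12, 9 were then lower at an unadjusted p under 0.05 in place of 1, beside 83 of all 269. The liver's main miRNA, miR-122-5p, known for its role in cholesterol synthesis, differed by 0.07 ± 0.0881 (limma adjusted p = 0.607), which became -0.35 when scaled over all probes. Values were -0.16 ± 0.153 for miR-22-3p, -0.28 ± 0.138 for miR-192-5p, -0.15 ± 0.127 for miR-194-5p and -0.14 ± 0.113 for miR-30a-5p (adjusted p 0.210 to 0.485). All 9 tested members of the let-7 family, which restrains growth genes, were negative, with a median of -0.16 and 0 at an unadjusted p under 0.05; the brightest were let-7f-5p at -0.10 ± 0.181 and let-7a-5p at -0.16 ± 0.155. The 6 tested miR-30 strands were also all negative (median -0.14, 0 at an unadjusted p under 0.05). Scaled over all probes, 7 of 9 let-7 members (median -0.58) and 5 of 6 miR-30 strands (median -0.56) were lower at an unadjusted p under 0.05. Under that scaling 83 of all 269 were lower at this level. In both families every member lay below the median of all tested miRNAs under either scaling. By the authors' deposited values 1 miR-30 strand lay above it. All let-7 members, with a GC content of 31.8% to 45.5%, belong to the lowest GC group described below. So do miR-30a-5p, miR-30c-5p and miR-30e-5p, but not miR-30a-3p. The median of that whole group was -0.15, and -0.48 when scaled over all probes. Whether either family differs from other miRNAs of low GC content was not tested.

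Among p53-responsive miRNAs 0 of 5 had an unadjusted p under 0.05, with miR-34a-5p at -0.30 ± 0.187 (limma adjusted p = 0.301). Scaled over all probes 4 of these 5 were lower at that level, beside 83 of all 269. Of 5 tested members of the inflammation and NF-kB list, miR-155-5p, an NF-kB target in immune cells and also a marker on the leukocyte list, was at 0.48 ± 0.159 and miR-21a-3p at -0.26 ± 0.0928 (adjusted p = 0.134 each). Both were dim: miR-155-5p was well above background on 4 CsA and 4 DMSO arrays, and miR-21a-3p on 1 and 5. The mean log2 signal of miR-21a-3p was -4.31 in CsA and -4.05 in DMSO, near the floor of -4.41, which limits the size of its change. The direction of miR-155-5p turned in the authors' deposited value table (-0.58). The abundant miR-21a-5p was at -0.30 ± 0.214 (adjusted p = 0.358). The hypoxia miRNA miR-210-3p stood at -0.36 ± 0.179 (adjusted p = 0.206), and miR-212-3p, the 1 tested strand of a list of CREB-driven miRNAs, at -0.49 ± 0.250 (adjusted p = 0.221). In the growth-promoting miR-17/92a clusters 0 of 11 had an unadjusted p under 0.05 (median -0.05). The miR-29 family had 0 of 3 (median -0.02), the cluster of miR-182-5p 0 of 3 (0.17, turning to -0.25 when scaled over all probes and -0.85 in the authors' deposited value table) and the X-linked cluster of miR-542-5p 0 of 2 (0.33). Of the miR-15/16 family 1 of 3 was lower, miR-15b-5p at -0.40 ± 0.174 (adjusted p = 0.174), and of the X-linked Clcn5 intron cluster 1 of 3 was higher, miR-500-3p at 0.32 ± 0.126 (adjusted p = 0.143; -0.11 when scaled over all probes). The single tested endothelial and mesenchymal markers, miR-126-3p and miR-145a-5p, stood at 0.28 ± 0.172 and 0.28 ± 0.189, and at -0.14 and -0.01 when scaled over all probes.

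**Figure D3:**
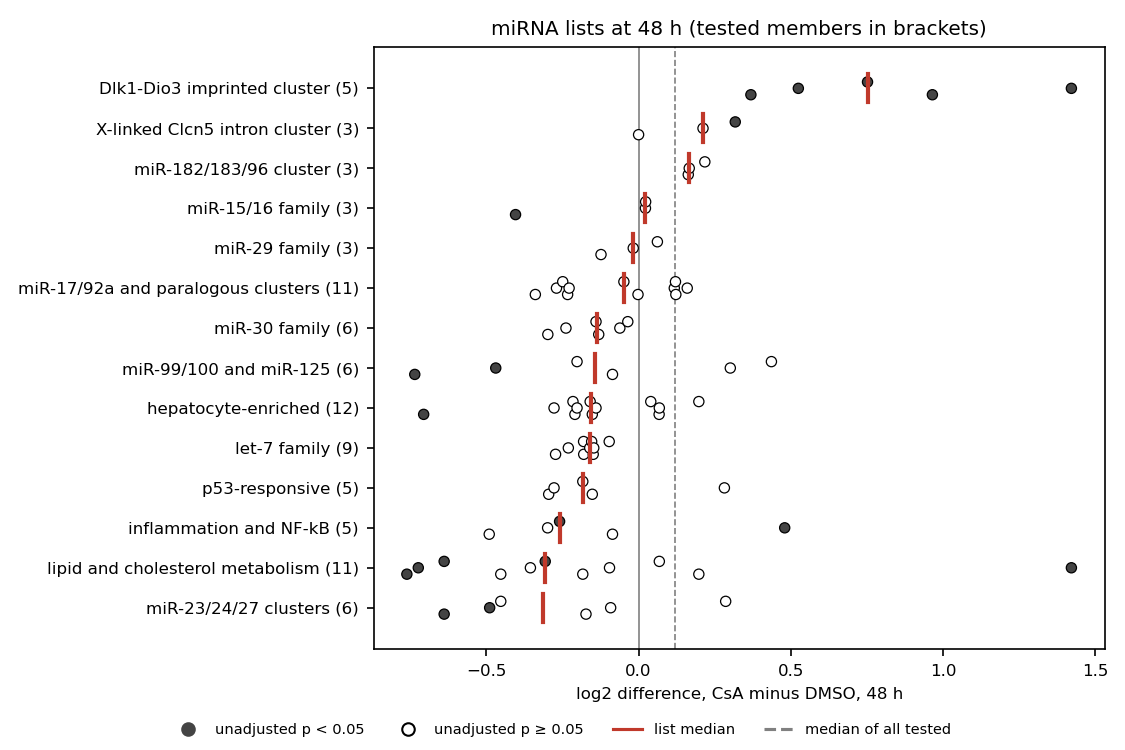
Log2 difference between CsA and DMSO at 48 h (x axis) for every tested member of the miRNA lists with at least 3 tested members; points are miRNAs, filled at an unadjusted p under 0.05, red bars list medians and the dashed line the median of all 269. The members of the Dlk1-Dio3 list lie between 0.37 and 1.42, and the let-7 members between -0.27 and -0.10.

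Both arms of a precursor were tested in 20 cases, and in 10 of these the arms had the same sign; under the other 4 scalings it was 12 to 16 of 20. For miR-125a the 5p arm stood at -0.73 ± 0.267 (limma adjusted p = 0.134) and the 3p arm at 0.30 ± 0.177 (adjusted p = 0.276), which became -0.12 when scaled over all probes and -0.03 in the authors' deposited value table. For miR-99b the arms stood at -0.47 ± 0.180 (5p) and 0.44 ± 0.210 (3p), and at -0.74 and 0.03 when scaled over all probes. These 4 strands are transcribed together from 1 cluster; the difference between arms was not tested.

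The sign of the change went with the base composition of the miRNA. Among the 213 miRNAs with a RefSeq sequence, split into 3 groups by GC content, the lowest (31.8% to 47.8%) had a median log2 change of -0.15 and 26 of 75 were positive. In the middle group the median was 0.12 with 43 of 67 positive, and in the highest (60.9% to 100%) it was 0.28 with 59 of 71 positive. Across miRNAs, which share arrays and hybridisation conditions and are not independent, Pearson's r was 0.32 and Spearman's rho 0.38. Over the main and 4 other scalings rho ran from 0.293 to 0.395, although scaled over all probes the median of the highest group was itself negative (-0.06, beside -0.48 for the lowest). The miRNAs higher at an unadjusted p under 0.05 had a median GC content of 59.1%, those lower 50%, and all tested 54.5%. Entries numbered 3000 or above, which were added to the miRNA catalogue late, made up 38.5% of the higher, 13.0% of the lower and 28.3% of all 269, and 65 of 76 were positive, beside 63.2% of all tested. Scaled over all probes 41 of these 76 were positive, and 47 under quantile normalisation.

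This gradient differed between the CsA arrays. Set against the DMSO mean of its own experiment, the median of the highest GC group exceeded that of the lowest by 1.41 on CsA 50 µM replicate 1, by 0.943 on CsA 10 µM replicate 2 and by 0.288 on CsA 10 µM replicate 3, the 3 arrays that the table names as 50 µM. On the others it was 0.151, 0.142 and -0.198. The first 3 arrays had 63, 48 and 26 miRNAs more than 1 log2 unit above their DMSO mean, and the others 3, 0 and 2. Experiments differed too: the medians of the lowest and highest GC groups were -0.25 and 0.54 in experiment 1, -0.24 and 0.23 in experiment 2, and 0.08 and 0.07 in experiment 3. At 24 h they were 0.03 and 0.05. CsA 50 µM replicate 2, with 0.142, lay on slide 1 like the 3 arrays with the steeper gradient.

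**Figure D4:**
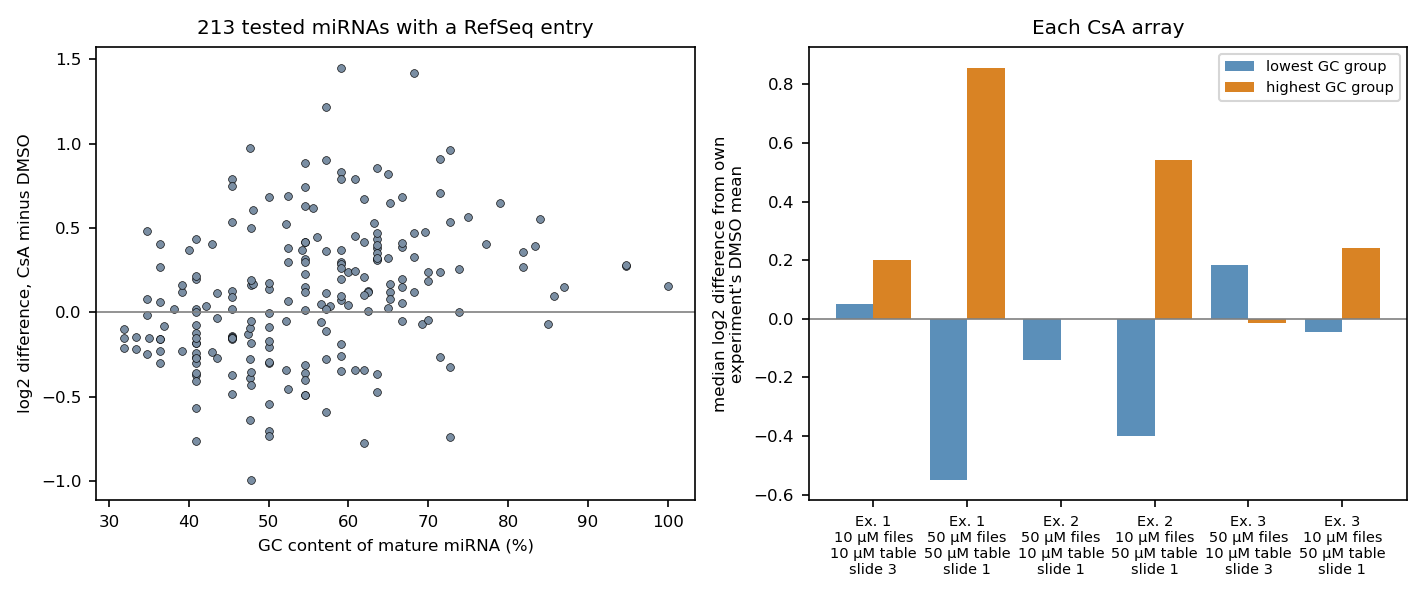
Left, the log2 difference between CsA and DMSO (y axis) against the GC content in percent (x axis) of 213 miRNAs, 1 point each; right, for each CsA array, the median difference from its own experiment's DMSO mean (y axis) in the lowest and highest GC groups, labelled with experiment, dose by either source and slide. These groups lie farthest apart, by 1.41, on the 50 µM array of experiment 1.

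The change was compared between experiments and between times. All 3 experiments agreed in sign for 106 higher (39.4%) and 44 lower (16.4%) of the 269 miRNAs. A test of the CsA change by experiment (limma, F test of the interaction) called 0 miRNAs, with 3 at an unadjusted p under 0.05 (1.12%): miR-1949, miR-1198-5p and miR-5117-3p. For the 24 h arrays the pooled comparison called 1 of the same 269 (0.372%), miR-3096b-3p, and 23 (8.55%) had an unadjusted p under 0.05. This 24 h fit took its residual spread from all 22 arrays, those at 48 h included. The 269 miRNAs were chosen by their signal at 48 h. The 24 h count is therefore not comparable with the 3 calls at 48 h, which came from a fit of 12 arrays. The interaction of CsA with time called 0, with 15 at an unadjusted p under 0.05 (5.58%). The lowest of these belonged to miR-221-3p, which differed by -0.28 ± 0.160 at 24 h (adjusted p = 0.687), a difference between times of -0.72 ± 0.216 (SE; limma adjusted p = 0.708). For miR-193a-3p the 24 h change was -0.18 ± 0.159 (adjusted p = 0.828). The fall of both at 48 h is thus not shown to differ from that at 24 h.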

How the data were processed

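Single-colour Agilent mouse miRNA arrays were read, per the file headers, by Feature Extraction 10.7.3.1. The deposited processed signal intensity is background-corrected by that software. The submitters' processing notes name R 2.15.2 for the authors' value table of log2 intensities. The labels' protocols give miRNeasy RNA with an integrity number over 8; the label field names biotin, the protocol an Agilent labelling kit. The design text speaks of 24 arrays; 22 were used and the others were not analysed here.

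Each probe's value was the mean of its non-outlier spots. To scale an array, its 75th percentile (188 to 605) was taken from the 281 probes that exceeded background everywhere in the series. Values under 0.0471 were raised to it before log2. The brightest probe stood for a miRNA. Tests covered 269 of 1247 miRNAs, those with at least 0.5 of a probe's spots well above background on at least 3 of the 12 arrays. The number of arrays limits the precision. Limma 3.58.1 (R 4.3.3) was fitted with experiment as block and with Benjamini-Hochberg adjustment. The fits were also run on simulated data with equal spread in CsA and DMSO and no slide or dose effect. That run therefore does not bear on the unequal spread or the slides of these arrays. The experiment numbers come from the labels; deviations of CsA and DMSO arrays of the same experiment correlated at 0.711, 0.399 and 0.771. The members and lists were chosen with earlier results of these data known. Named miRNAs are the called ones, the 5 of lowest p in each direction where fewer were called, and list members by signal; others are marked as chosen after their values were seen, and further family members and arms were too.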

Additional observations from a re-analysis of the deposited data

Results flagged for a closer look

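In 38 groups of 6 arrays, 4 had a highest or lowest array far from the rest by Dixon's criterion, which chance alone gives in about 1 of 20 groups. The log2 signal of miR-194-5p was 0.0112 on DMSO replicate 5, below the other DMSO arrays. That of miR-222-3p was -4.21 on DMSO replicate 3, the highest of its group, while the rest lay at or near the floor. The negative control spots averaged 33.7 on DMSO replicate 1, against 2.19 to 3.02 on the other DMSO arrays. The 75th percentile used for scaling was 605 on CsA 10 µM replicate 3, where 400 miRNAs were listed as detected, the most of the 12 arrays.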

How the results depend on the processing

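The pooled count of 3 calls became 8 when scaled over all probes, 1 in the authors' value table, 0 with no filter on dim miRNAs (1247 tested in limma, 64 at an unadjusted p under 0.05), 6 with the filter set on all 22 arrays and 11 with all 22 arrays in the fit. Without the experiment number as replicate block it was 1 (miR-221-3p), with a random block 1 and with the slide as a further block 1 (miR-3096b-3p). A dose term by the table's names, added after the data were seen, gave 95. Leaving out each array in turn gave 0 to 6 calls, 0 in 6 of 12 fits; without experiment 2 or experiment 3 the count was 0, with 26 and 67 miRNAs at an unadjusted p under 0.05. In the other settings run it was 2 to 4. Outside the fits without 1 array or 1 experiment, miR-221-3p was called in 13 of 16 other tests (adjusted p 0.00122 to 0.187), miR-3096b-3p in 10 of 16 (0.00377 to 0.315) and miR-193a-3p in 8 of 16 (0.00301 to 0.216), and each kept its direction in all of them. The interactions with experiment and with time gave 0 calls in every setting run; the slide block could not be fitted in the interaction with experiment. The cause of these differences was not tested. Signal near the floor limits what can be said of miR-221-3p in CsA and of miR-222-3p in both groups.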
